A study of Mus musculus with 8 samples.

Results

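The colony-stimulating factors and their receptors are described here across WT and iNOS-/- bone marrow-derived macrophages, before and after M1 activation. The members are the genes Csf1, Csf1r, Csf2, Csf2ra, Csf2rb, Csf2rb2, Csf3, Csf3r and Il3ra, each found by its symbol with every probe it has, which gave 9 genes with 17 probes of 18138 gene symbols with 25697 probes. The cells came from bone marrow of female mice aged 8 weeks, labelled as strain C57bl/6J in all groups, and were cultured in GM-CSF (10 ng/ml) for 7 days. There were 2 Illumina bead arrays for unstimulated and 2 for M1 cells of either genotype, 8 arrays in 4 groups. M1 activation lasted 6 h and used IFN-γ at 10 ng/ml together with LPS at 200 ng/ml, and the unstimulated cells received neither. The iNOS-/- mice, named B6.129P2-Nos2tm1Lau/J in the methods, lack the inducible nitric oxide synthase encoded by Nos2. Since GM-CSF, the product of Csf2, was supplied to all 4 groups, none of these cells was unexposed to a colony-stimulating factor. The labels do not say whether the arrays of a group came from separate mice, so the p-values measure only the spread between arrays, which may be technical.

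M-CSF (Csf1), GM-CSF (Csf2) and G-CSF (Csf3) are secreted proteins that keep myeloid cells alive and drive their growth and maturation. M-CSF binds the receptor tyrosine kinase Csf1r, and G-CSF binds the cytokine receptor Csf3r. The GM-CSF receptor pairs its own alpha chain, Csf2ra, with the common beta chain Csf2rb, which also serves the IL-3 and IL-5 receptors, and mice carry a further beta chain, Csf2rb2, that works with the IL-3 receptor alpha chain Il3ra. These chains have no kinase of their own and signal through JAK2 and STAT5. Activated macrophages are themselves a known source of all 3 factors.

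The probes are 50 bases long and each is named here by the position at which it starts in its transcript. Several members had more than 1 probe, and 3 pairs overlapped in sequence. Of these, the pairs of Csf3 and Csf2rb are shown in full because the results compare them, and the third, Csf3r at 953 and 979, was not tested. The Csf3 probes at 289 and 293 share 47 of their 50 bases, written in capitals. The file places them at chr11:98563348-98563397 and chr11:98563352-98563401 on the plus strand, on a genome build that the file does not name, and their listed starts lie 4 bases apart although the sequences are shifted by 3.
Csf3 probe at 289: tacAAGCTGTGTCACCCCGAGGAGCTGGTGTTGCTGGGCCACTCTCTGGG
Csf3 probe at 293: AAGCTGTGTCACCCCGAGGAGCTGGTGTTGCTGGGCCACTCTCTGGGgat
The Csf2rb probes at 1319 and 1344 share 25 bases, again in capitals, and the second of them runs across an exon junction in the file's coordinates.
Csf2rb probe at 1319: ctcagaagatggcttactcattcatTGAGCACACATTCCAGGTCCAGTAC
Csf2rb probe at 1344: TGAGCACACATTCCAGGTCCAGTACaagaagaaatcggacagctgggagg
For Csf1 and Csf2, each read by 1 probe and each with a large response, the first 30 bases of the probe identify what was hybridized.
Csf1 probe at 4015: ctgagaaagctcagagggagcactgcctca
Csf2 probe at 849: gccctctgaaaacgctgactcagcttggac
No stretch of 20 bases in any of the 17 probes occurred in a probe of another gene symbol on the array, on either strand. Csf2rb and Csf2rb2 are close paralogs, however, and whole transcripts were not compared here, so how far their probes can read each other's mRNA is uncertain.

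The arrays were alike in quality, with 46.0% to 49.3% of probes detected and mean deposited intensities of 155 to 224. A probe is called detected where its detection p-value, which sets its brightness against that of the negative control beads, is under 0.05. Nos2 was not detected on the 4 unstimulated arrays, and read 7.45 and 7.04 on the WT M1 arrays and 7.52 and 7.69 on the iNOS-/- M1 arrays in normalized log2 intensity (difference 0.36, SE 0.32, limma adjusted p = 0.397). Its probe starts at 3546 of the transcript and where it lies against the deleted part was not worked out here, so it does not check the genotype, and genotypes below are those of the labels. Of 12 macrophage marker symbols 10 were detected on all 8 arrays, among them Emr1, Cd68 and Cd14, while Msr1 was detected on none. All 6 T and NK cell markers, 3 of 4 B cell markers and 4 of 5 stromal cell markers were detected on no array. Markers of other myeloid cells differed between groups and are given beside the results. In bulk RNA, fewer cells of a type and less RNA per cell cannot be told apart.

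Of the 17 probes, 14 were detected on at least 2 arrays and were tested, and they cover all 9 genes. The remaining 3, the Csf3r probes at 75, 953 and 979, were detected on at most 1 array each and were not tested. Activation changed 7 of the 14 probes in WT cells, where 35.1% of all 13868 probes tested were called at an adjusted p under 0.05. It changed 7 of 14 in iNOS-/- cells, where 50.0% of all probes were called. Between the M1 groups 7 of 14 differed, against 48.5% of all probes, and between the unstimulated groups 3 of 14 differed, against 32.1% of all probes. These shares are near the background of their comparisons in iNOS-/- cells and between the M1 groups. The median log2 difference of the 14 probes was 0.50 for activation in WT cells, where the median of all probes was 0.07, and 0.24 with probes undetected in a group set at their bounds. It was 0.31 against 0.04 in iNOS-/- cells, -0.10 against 0 between the M1 groups and -0.33 against -0.02 between the unstimulated groups, or -0.19 at the bounds.

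**Figure D1:**
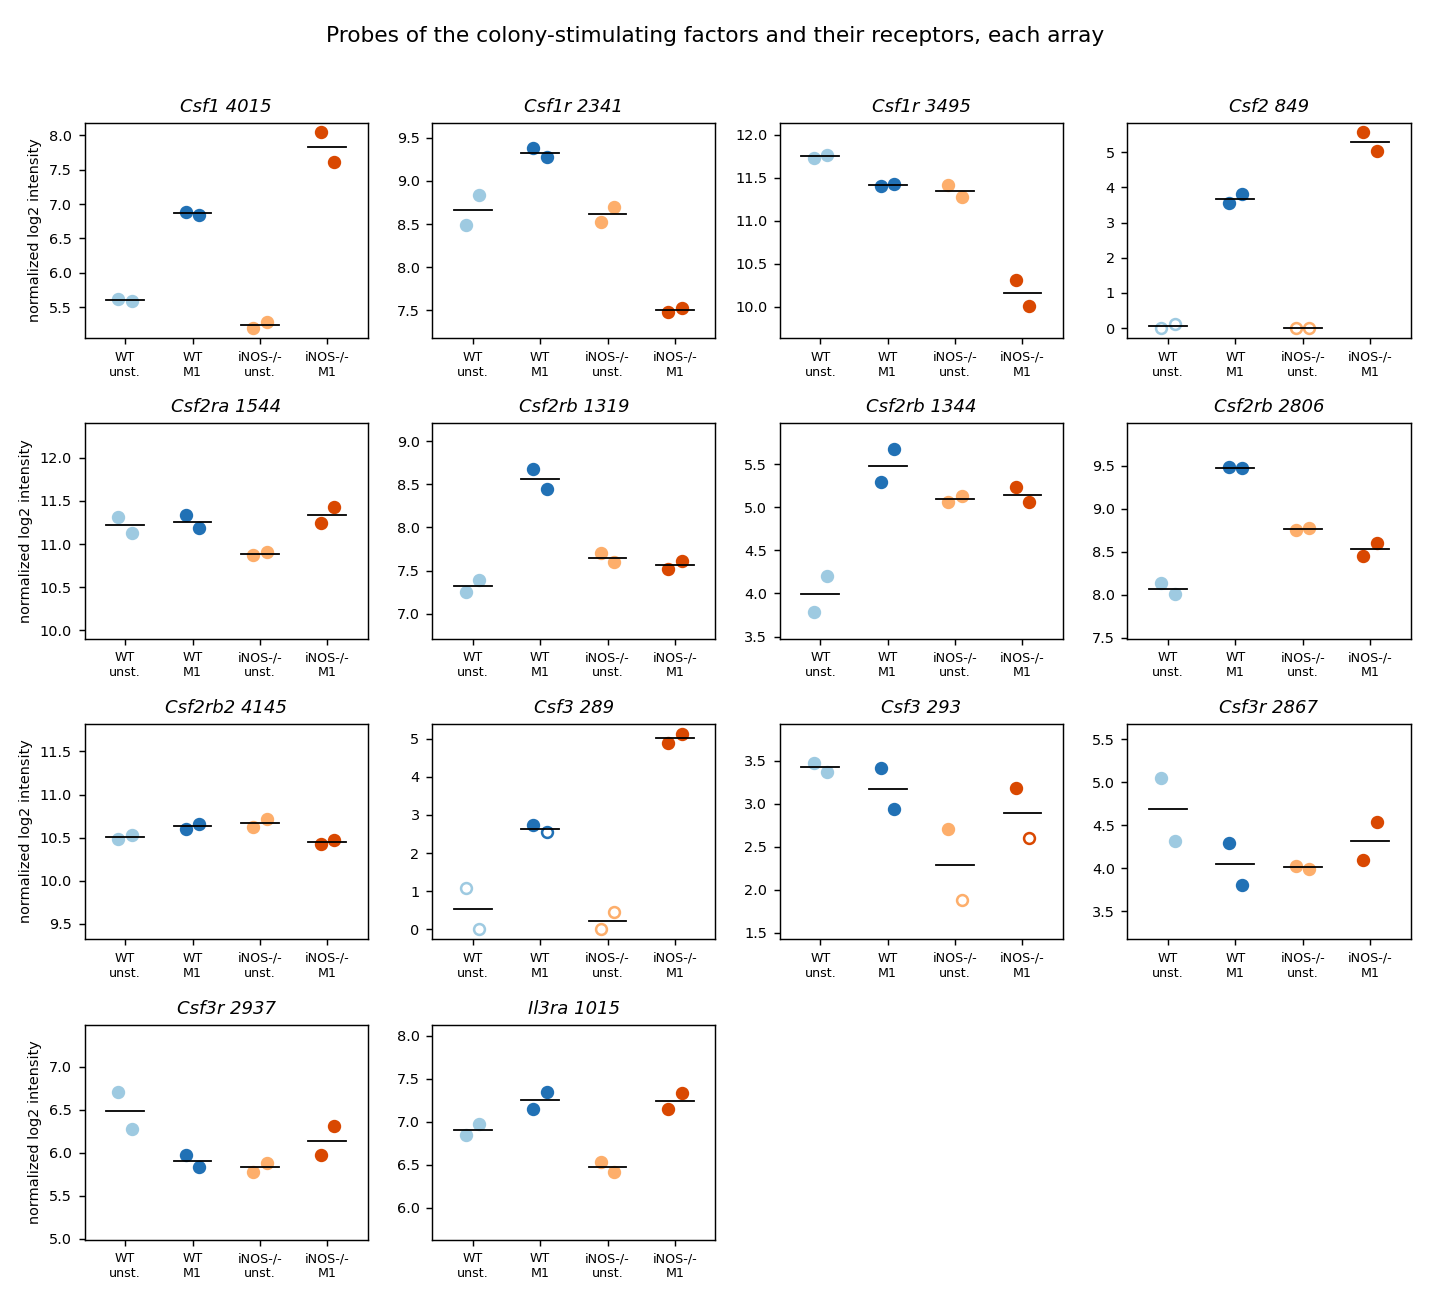
Normalized log2 intensity of each of the 14 tested probes on each of the 8 arrays, with filled circles for arrays on which the probe was detected, open circles where it was not, and a line at the mean of the 2 arrays of a group. Titles give the gene and the start of the probe in its transcript. Csf1, Csf2 and the Csf3 probe at 289 were highest on the iNOS-/- M1 arrays, whereas both Csf1r probes were lowest there.

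Csf1, which encodes M-CSF, was expressed in all groups and rose with activation in both genotypes. Its probe read 5.62 and 5.59 on the WT unstimulated arrays, 6.88 and 6.85 on the WT M1 arrays, 5.20 and 5.30 on the iNOS-/- unstimulated arrays and 8.04 and 7.61 on the iNOS-/- M1 arrays. Both M1 groups lay above both unstimulated groups, and the iNOS-/- M1 arrays lay above the WT M1 arrays without overlap. Activation raised Csf1 2.40-fold in WT cells (log2 difference 1.26, SE 0.15, limma adjusted p = 0.00326) and 5.97-fold in iNOS-/- cells (2.58, SE 0.15, limma adjusted p = 0.000159). Csf1 was thereby 1.95-fold higher in iNOS-/- M1 than in WT M1 cells (limma adjusted p = 0.00500). In unstimulated cells the difference of -0.36 (95% CI -0.74 to 0.03) did not pass the test.

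Csf2, which encodes GM-CSF, was not detected on any of the 4 unstimulated arrays, although all cultures had received GM-CSF protein. After activation it was detected on all 4 arrays, at 3.55 and 3.81 in WT M1 cells and 5.56 and 5.02 in iNOS-/- M1 cells. The M1 groups did not overlap with each other. Because the unstimulated level was below detection, its rise is a bound: at least 2.27-fold in WT cells and at least 7.95-fold in iNOS-/- cells. The limma test does not test these bounds. It used the undetected values at or near the floor, with log2 differences of 3.62 in WT cells (limma adjusted p = 0.000245) and 5.29 in iNOS-/- cells (limma adjusted p = 4.80e-05). The probe entered the test through its M1 arrays only. Csf2 was 3.06-fold higher in iNOS-/- M1 than in WT M1 cells (log2 difference 1.61, SE 0.20, limma adjusted p = 0.00210). The WT M1 level was close to the lowest detected probe of an array, which ranged from 2.29 to 2.94, and with a floor of 16 on the intensities both WT groups fell at the floor and showed no difference.

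Csf3, which encodes G-CSF, gave different answers from its overlapping probes. The probe at 289 was detected on none of the unstimulated arrays, on 1 of 2 WT M1 arrays (2.73 and 2.54) and on both iNOS-/- M1 arrays (4.89 and 5.13). By this probe Csf3 was higher in iNOS-/- M1 than in WT M1 cells (log2 difference 2.37, SE 0.38, limma adjusted p = 0.00495). The size of that difference is uncertain because the WT M1 signal was near background, and the alternatives gave 1.01 to 2.67. The probe rose at least 6.52-fold with activation in iNOS-/- cells, and its rise in WT cells had a bound of 1.10-fold. The limma test does not test these bounds and used the undetected values as they were. It gave log2 differences of 4.79 in iNOS-/- cells (limma adjusted p = 0.000378) and 2.10 in WT cells (limma adjusted p = 0.0112). The WT call was lost with neqc, with an intercept in the scaling line and with a floor of 16. It was also lost in a fit on the 4 WT arrays and without WT M1 replicate 1. The probe at 293 read 3.47 and 3.37, 3.42 and 2.93, 2.70 and 1.88, and 3.18 and 2.60 on the arrays in the same group order, so that groups overlapped in all but the unstimulated comparison. No difference at the probe at 293 passed the test, including that between the M1 groups (-0.29, 95% CI -1.17 to 0.60). The largest was between iNOS-/- and WT unstimulated cells (-1.13, 95% CI -2.01 to -0.24, limma adjusted p = 0.0618). It was called with neqc, with an intercept in the scaling line and with a replicate block. Unlike the probe at 289, the probe at 293 was detected on both WT unstimulated arrays and on 1 of 2 iNOS-/- unstimulated arrays. The called changes of Csf3 come from 1 of the 2 probes that share 47 bases.

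**Figure D2:**
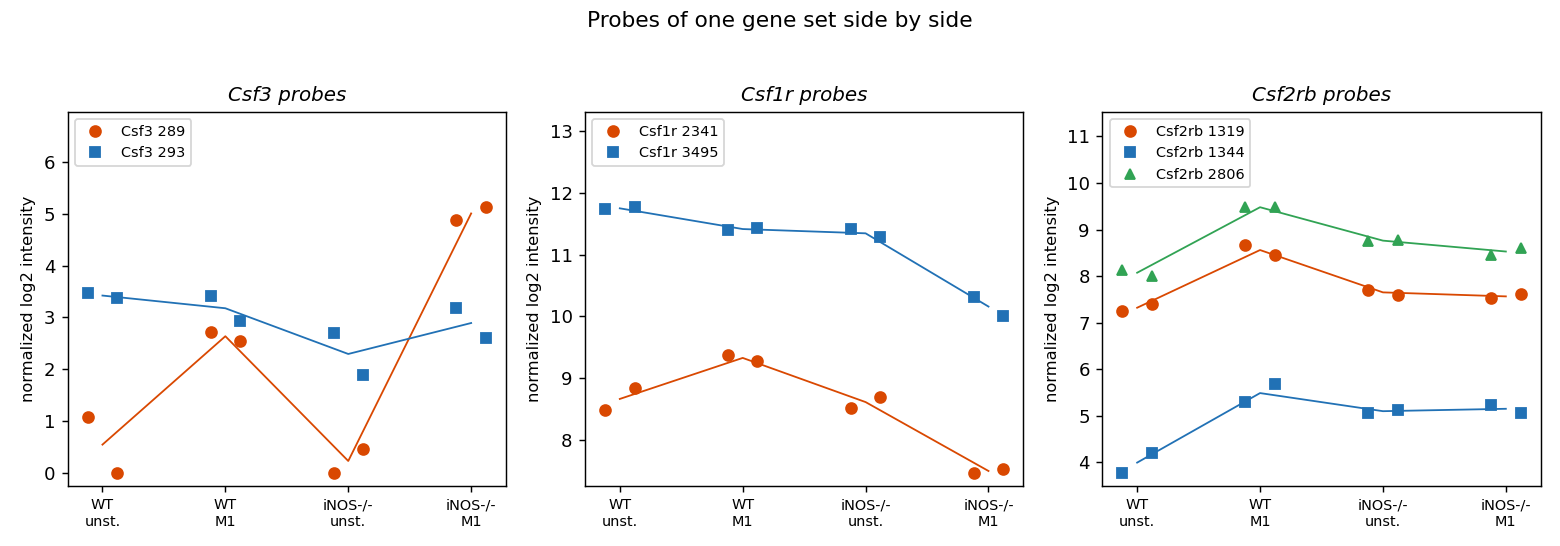
Normalized log2 intensity on each of the 8 arrays for genes with several tested probes, with lines joining the group means and symbols for the probes. The Csf3 probes crossed between WT M1 and iNOS-/- M1, the Csf1r probes rose at 2341 and gave a lower mean without passing the test at 3495 in WT cells, and the 3 Csf2rb probes were all highest on the WT M1 arrays.

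Csf1r, the M-CSF receptor that marks the macrophage lineage, was lower in iNOS-/- M1 cells than in any other group by both of its probes. The probe at 3495 read 11.73 and 11.77 in WT unstimulated cells, 11.40 and 11.43 in WT M1 cells, 11.41 and 11.28 in iNOS-/- unstimulated cells and 10.31 and 10.01 in iNOS-/- M1 cells. The probe at 2341 read 8.49 and 8.84, 9.38 and 9.28, 8.53 and 8.70, and 7.47 and 7.52 in the same order. On both probes the iNOS-/- M1 arrays lay below all 6 others. Activation lowered Csf1r in iNOS-/- cells 2.27-fold at the probe at 3495 (limma adjusted p = 0.000986) and 2.17-fold at the probe at 2341 (limma adjusted p = 0.00213). Between the M1 groups it was lower in iNOS-/- cells by 2.39-fold (limma adjusted p = 0.00102) and 3.56-fold (limma adjusted p = 0.000549), respectively.

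In WT cells the Csf1r probes disagreed on the response. The probe at 2341 rose 1.58-fold (log2 difference 0.66, SE 0.15, limma adjusted p = 0.0205), a call that was lost in a fit on the 4 WT arrays and without WT unstimulated replicate 1, WT M1 replicate 1 or WT M1 replicate 2. The probe at 3495 gave -0.34 (95% CI -0.65 to -0.02, limma adjusted p = 0.0927), and did not pass the test. The signal of the probe at 3495 over that at 2341 was 3.24 and 2.93 on the WT unstimulated arrays and 2.02 and 2.15 on the WT M1 arrays, against 2.88, 2.58, 2.83 and 2.49 on the iNOS-/- arrays, all as log2 differences within an array. Unstimulated cells of both genotypes overlapped at the probe at 2341, and the difference at the probe at 3495 (-0.40, 95% CI -0.72 to -0.09, limma adjusted p = 0.0603) did not pass the test.

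Csf2rb, the common beta chain of the GM-CSF, IL-3 and IL-5 receptors, rose with activation in WT cells at all 3 of its probes. The probe at 2806 read 8.14 and 8.01 on the WT unstimulated arrays, 9.48 and 9.48 on the WT M1 arrays, 8.75 and 8.77 on the iNOS-/- unstimulated arrays and 8.46 and 8.60 on the iNOS-/- M1 arrays. The WT M1 arrays were the highest and the WT unstimulated arrays the lowest, with both iNOS-/- groups between them. The rise in WT cells was 2.65-fold at the probe at 2806 (limma adjusted p = 0.000472), 2.36-fold at the probe at 1319 (limma adjusted p = 0.00153) and 2.82-fold at the probe at 1344 (limma adjusted p = 0.00426). In iNOS-/- cells no Csf2rb probe passed the test, with log2 differences of -0.23 (95% CI -0.47 to 0.0045), -0.09 (95% CI -0.39 to 0.21) and 0.05 (95% CI -0.45 to 0.55) in that order of probes. The first of these was called lower in 4 of 17 alternatives, reaching -0.48.

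Before activation Csf2rb was higher in iNOS-/- than in WT cells, by 1.61-fold at the probe at 2806 (limma adjusted p = 0.00494) and 2.15-fold at the probe at 1344 (limma adjusted p = 0.0117), while the probe at 1319 gave a log2 difference of 0.33 (95% CI 0.03 to 0.63) that did not pass. The call at the probe at 1344 was lost without either iNOS-/- unstimulated array. After activation the order was turned, and Csf2rb was lower in iNOS-/- M1 than in WT M1 cells by 1.93-fold at the probe at 2806 (limma adjusted p = 0.00102) and 1.99-fold at the probe at 1319 (limma adjusted p = 0.00185). The probe at 1344, which shares 25 bases with the probe at 1319, gave -0.34 (95% CI -0.84 to 0.16) there. Markers of dividing cells also differed between groups, with summed normalized intensities over 11 genes of 817 to 898 in WT unstimulated, 2514 to 2632 in WT M1, 2955 to 2985 in iNOS-/- unstimulated and 1209 to 1219 in iNOS-/- M1 cells. Of 9 tested markers of dividing cells, 8 were higher with activation in WT cells, and 7 were lower in iNOS-/- cells. Against WT, 8 were higher in iNOS-/- unstimulated cells, and 1 was higher and 7 lower in iNOS-/- M1 cells. The shares of all probes were 20.2% higher, 23.8% lower, 15.9% higher, and 24.2% higher and 24.3% lower, in that order. The part of dividing cells in the result was not tested.

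The other receptor chains moved little. Csf2rb2, the second mouse beta chain, stayed between 10.43 and 10.71 on all 8 arrays, and no comparison passed the test as described. Its log2 differences were 0.13 (95% CI -0.08 to 0.34) with activation in WT cells and -0.22 (95% CI -0.43 to -0.01) in iNOS-/- cells, and the latter was called at -0.75 with neqc and -0.76 with quantile normalization. The difference between the M1 groups (-0.18) was called in 6 of 17 alternatives, reaching -0.59, and the difference of responses (-0.35) in 7 of 16, reaching -0.90. Csf2ra, the GM-CSF-specific alpha chain, lay between 10.87 and 11.43. It was 1.37-fold higher with activation in iNOS-/- cells (limma adjusted p = 0.0253), but the direction turned to -0.17 with neqc and with quantile normalization, and WT cells gave 0.04 (95% CI -0.26 to 0.33).

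Il3ra, the alpha chain of the IL-3 receptor, read 6.84 and 6.97 in WT unstimulated cells, 7.15 and 7.34 in WT M1 cells, 6.53 and 6.42 in iNOS-/- unstimulated cells and 7.14 and 7.33 in iNOS-/- M1 cells. The M1 groups overlapped, and the iNOS-/- unstimulated arrays were the lowest. Activation raised Il3ra 1.70-fold in iNOS-/- cells (limma adjusted p = 0.00439), and the difference of 0.34 in WT cells (95% CI 0.04 to 0.65, limma adjusted p = 0.0829) did not pass. The lower level in iNOS-/- than in WT unstimulated cells, 1.35-fold, was at the edge of the test (limma adjusted p = 0.0468) and remained called in 5 of 17 alternatives.

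Csf3r, the G-CSF receptor of the granulocyte lineage, was measured by the probes at 2937 and 2867 near the end of its transcript. The probe at 2937 read 6.70 and 6.27 in WT unstimulated cells, 5.97 and 5.84 in WT M1 cells, 5.78 and 5.89 in iNOS-/- unstimulated cells and 5.97 and 6.31 in iNOS-/- M1 cells. The WT unstimulated arrays had the highest mean, and their range overlapped that of the iNOS-/- M1 arrays. No comparison between groups passed the test at either probe, the nearest being iNOS-/- against WT unstimulated cells at the probe at 2937 (-0.65, 95% CI -1.14 to -0.17, limma adjusted p = 0.0520). Granulocyte markers, which accompany Csf3r in mature granulocytes, had summed intensities over 11 genes of 1304 to 1326 in WT unstimulated, 1945 to 2049.95 in WT M1, 1857 to 1907 in iNOS-/- unstimulated and 6946 to 7356 in iNOS-/- M1 cells, with Mpo detected on no array. With activation in iNOS-/- cells, 6 of 9 tested markers were higher and 0 lower, against 26.2% and 23.8% of all probes. Between the M1 groups 4 were higher and 0 lower in iNOS-/- cells, against 24.2% and 24.3% of all probes. In the other comparisons these markers did not move as 1 group. Of 9 tested, 5 were higher and 1, Mmp8, was lower with activation in WT cells, against 20.2% and 14.9% of all probes. Between the unstimulated groups 5 were higher and Mmp8 lower in iNOS-/- cells, against 15.9% and 16.2% of all probes. Mmp8 had means of 7.53, 5.78, 6.17 and 6.20 in the same group order. The part of granulocytes in the result was not tested.

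**Figure D3:**
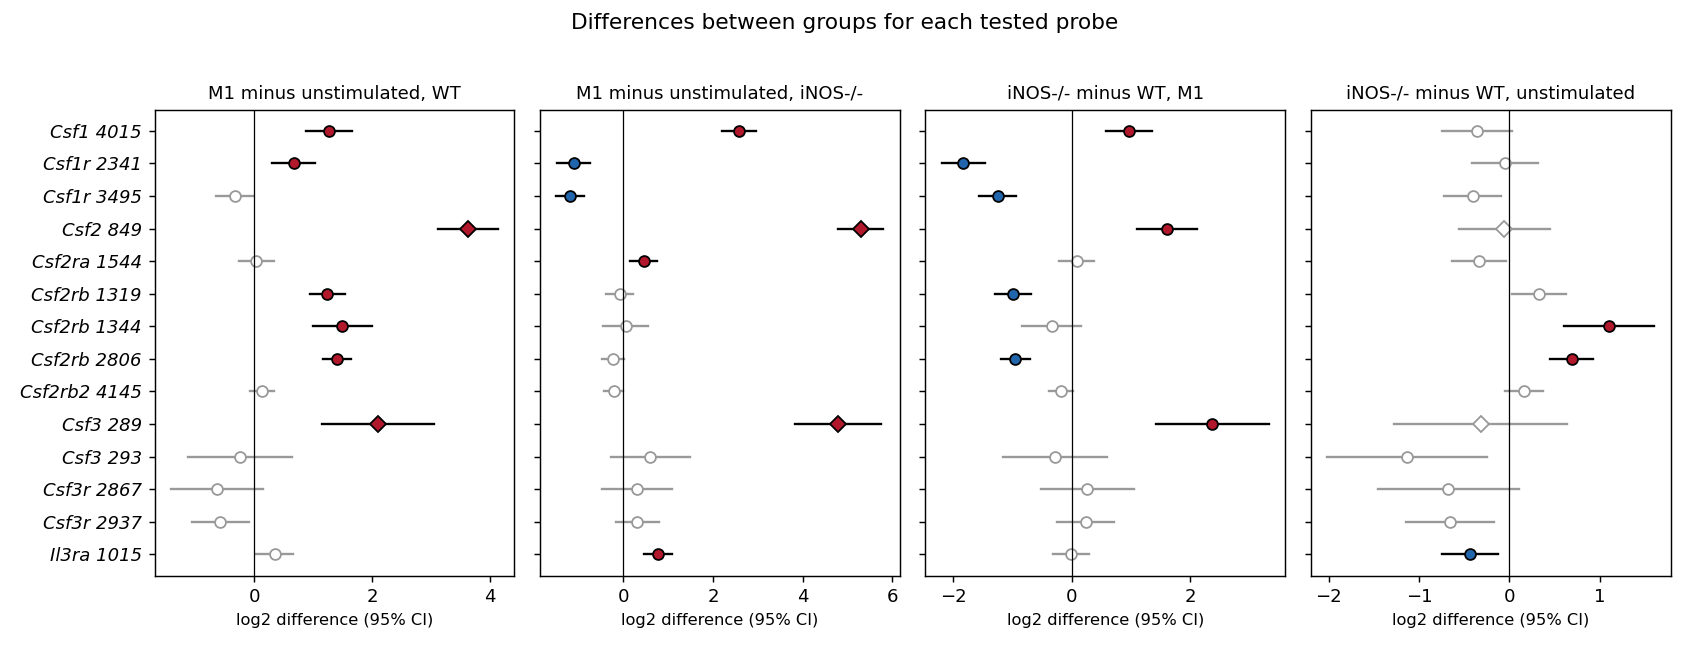
Log2 difference with its 95% confidence interval for each of the 14 tested probes in 4 comparisons, with filled red symbols for a higher and filled blue symbols for a lower call, open symbols where the test was not passed, and diamonds where a group was detected on neither array so that the value depends on the floor. Each panel has its own scale. The ligands Csf1 and Csf2 lay to the right in both responses, and Csf1r lay to the left in iNOS-/- cells and between the M1 groups.

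Between the M1 groups the called probes of ligands and of receptors differed in opposite directions. Relative to WT M1 cells, the called probes were higher for Csf1, Csf2 and the Csf3 probe at 289 and lower for both Csf1r probes and the Csf2rb probes at 1319 and 2806. None of these 7 calls was lost in the alternatives in which the probe was tested. The stricter detection filter left out the Csf3 probe at 289, which had 16 alternatives against 17 for the others. The response to activation itself differed between genotypes at 9 of 14 probes, where 41.9% of all probes were called. Among these 9 called probes, the log2 response in iNOS-/- cells minus that in WT cells was above 0 at 4 and below 0 at 5. Of all probes 20.8% were called above 0 and 21.1% below. Dendritic cells can arise in GM-CSF cultures of bone marrow, and the summed intensities of 9 of their markers were 848 to 854 in WT unstimulated, 16572 to 17243 in WT M1, 13651 to 14531 in iNOS-/- unstimulated and 36936 to 38399.7 in iNOS-/- M1 cells, with Flt3 detected on no array. Of 8 tested, 7 were higher and 0 lower with activation in WT cells (median 4.29), against 20.2% and 14.9% of all probes. Between the unstimulated groups 7 were higher and 0 lower in iNOS-/- cells (median 3.92, or 3.66 at the bounds), against 15.9% and 16.2%. With activation in iNOS-/- cells 6 were higher and 1 lower, against 26.2% and 23.8%. The markers did not move as 1 group between the M1 groups, where 5 of 8 tested were higher and 1 lower in iNOS-/- cells, against 24.2% and 24.3% of all probes. Ccl17 and Il4i1 were the brightest of those that were higher. Cd209a, the lower one, was detected on both WT M1 arrays and on neither iNOS-/- M1 array. Itgax gave -0.41 without passing the test. For the difference of responses all 8 tested markers were below 0, and 6 of them were called, against 21.1% of all probes called lower. Sums of 7 mast cell and basophil markers were 49.5 to 51.9 in WT unstimulated and 512 to 555 in WT M1 cells. They were 410 to 413 in iNOS-/- unstimulated and 2188 to 2283 in iNOS-/- M1 cells, where Hdc was the brightest at a mean of 10.83. Mcpt8 and Ms4a2 were detected on no array. Of 5 tested, 3 were higher and 1, Prg2, was lower in iNOS-/- M1 than in WT M1 cells, against 24.2% and 24.3% of all probes. The 12 macrophage marker symbols summed to between 44097 and 68068 on all arrays. The part of these cells in the results was not tested.

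Genes that act around these receptors were followed in 5 lists, with the brightest probe of each gene, and counts and names of higher or lower genes are those that passed the limma test. Of the genes that GM-CSF and STAT5 are known to raise, all 16 were tested. With activation 10 were higher and 1 lower in WT cells (median log2 difference 1.65, or 1.60 at the bounds, against 0.07 for all probes). In iNOS-/- cells 11 were higher and 1 lower (median 1.09 against 0.04, and 0.56 with neqc). Of all probes 20.2% were higher and 14.9% lower in WT cells, and 26.2% and 23.8% in iNOS-/- cells. Ccnd2, a cyclin that drives entry into the cell cycle, went from a mean of 3.89 to 9.98 in WT cells and from 8.98 to 12.85 in iNOS-/- cells, and Ccnd1 went from 3.95 to 7.94 and from 8.51 to 9.21. Socs3, a feedback inhibitor of cytokine receptors, was higher by 3.21 in iNOS-/- cells, and Mcl1, a survival factor, was lower by -0.87 in WT cells. Before activation 8 genes of the list were higher and 2 lower in iNOS-/- than in WT cells, against 15.9% and 16.2% of all probes. The median was 1.16, or 0.57 at the bounds, against -0.02, and 0.35 with neqc. Ccnd2 at 5.10 and Ccnd1 at 4.56 led the list. Between the M1 groups 10 were higher and 2 lower in iNOS-/- cells, against 24.2% and 24.3% of all probes. The median there was 0.75 at the bounds against 0, and 0.39 with neqc.

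Of 28 genes of signalling from these receptors, 25 were tested. In WT cells 11 were higher and 3 lower with activation (median 0.29 against 0.07 for all probes, of which 20.2% were higher and 14.9% lower). In iNOS-/- cells 12 were higher and 5 lower (median 0.84 against 0.04 for all probes, of which 26.2% were higher and 23.8% lower), or 8 higher and 7 lower with a median of 0.22 under quantile normalization. Jak2, the kinase bound by the GM-CSF receptor, rose by 3.35 in WT and 1.99 in iNOS-/- cells on the log2 scale, and was 2.76 higher in iNOS-/- than in WT cells before activation. Stat5a rose by 1.91 and 1.51. Stat3, which carries IL-6 type signals, rose by 2.23 in iNOS-/- cells and was higher by 1.58 in iNOS-/- M1 than in WT M1 cells. Inpp5d, a lipid phosphatase that restrains signalling from these receptors, and Gab3, an adaptor of Csf1r, were lower by -2.99 and -3.09 in iNOS-/- M1 than in WT M1 cells, and Gab3, detected on 1 of the 2 iNOS-/- M1 arrays, gave as little as -1.54 under another scaling. Tyrobp, an adaptor of myeloid receptors, was lower by -1.11 with activation in WT cells.

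Of 11 transcription factors of the Csf1r and Csf3r genes, 10 were tested. Activation raised 4 and lowered 3 in WT cells (median -0.10), and raised 4 and lowered 6 in iNOS-/- cells (median -1.03). Of all probes 20.2% and 26.2% were higher, and 14.9% and 23.8% were lower, in WT and iNOS-/- cells. In iNOS-/- cells Klf4, a factor of monocyte maturation, was lower by -3.52, and Fos was lower by -2.87. Cebpa, a factor needed for myeloid commitment, was detected on neither iNOS-/- M1 array and was at least 5.99-fold lower there than in WT M1 cells. Gfi1, a repressor, was detected on both arrays of each M1 group and rose at least 28.5-fold in WT cells, and Irf8, a factor of the monocyte lineage, rose by 1.70 in WT and 2.89 in iNOS-/- cells. Between the M1 groups 3 factors were higher and 6 lower in iNOS-/- cells (median -1.24 against 0), against 24.2% and 24.3% of all probes.

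Of 11 factors of mRNA decay and shedding, 9 were tested. With activation 4 were higher and 1 lower in WT cells (median 0.58, or 0.30 at the bounds) and 6 were higher and 1 lower in iNOS-/- cells (median 0.69), or 3 higher and 1 lower with quantile normalization, against 20.2% and 26.2% of all probes higher. Zc3h12a, an RNase that destroys cytokine mRNAs, rose by 3.20 in iNOS-/- cells and was 2.10 higher in iNOS-/- M1 than in WT M1 cells. Adam17, a protease that sheds Csf1r from the cell surface, gave -0.34 with activation in WT cells and 0.76 in iNOS-/- cells, both called, although the former was not called under every scaling. Of 14 other growth factors and receptors, 11 were matched on the array and 5 were tested. Lif, a factor of the IL-6 family, rose at least 1.55-fold in WT and 4.31-fold in iNOS-/- cells, and Il6ra, the IL-6 receptor chain, was lower by -4.15 in iNOS-/- M1 than in WT M1 cells, where it was detected on 1 of the 2 iNOS-/- M1 arrays and gave as little as -1.75 under another scaling. Il3, Il5ra, Flt3 and Flt3l were detected on no array.

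**Figure D4:**
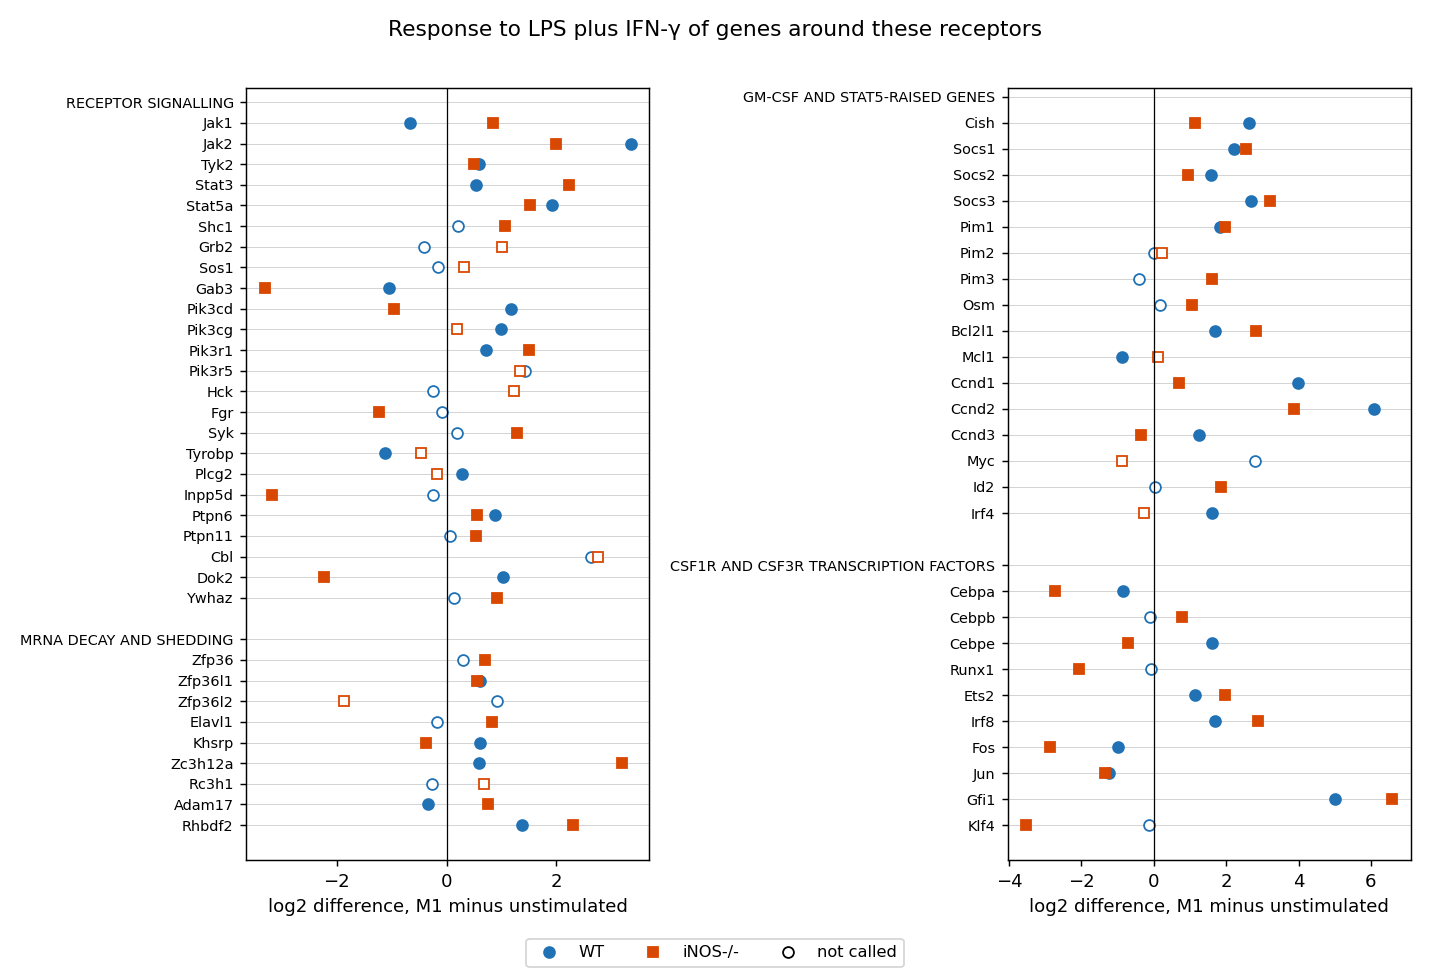
Log2 difference between M1 and unstimulated cells for tested genes of 4 lists, with circles for WT and squares for iNOS-/- cells, filled where the test was passed. Gfi1 in WT and Cebpa in iNOS-/- cells had a group with no detection and depend on the floor. Ccnd2, Jak2 and Gfi1 lie far to the right in WT cells, and Klf4, Gab3 and Inpp5d lie far to the left in iNOS-/- cells.

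The genes whose pattern was most like that of a member were found by Pearson's correlation over the 8 arrays among 10154 genes, a description in which the arrays share 4 groups. Nearest to Csf1 was Tmco3 (r = 0.998), followed by 2310036O22Rik and Itgav. Nearest to Csf2 was Tyki (r = 0.998), followed by Igtp, an interferon-induced GTPase, and Inhba, a subunit of activin. The Csf3 probe at 289 was nearest to Lck (r = 0.995), and the probe at 293 to Hamp2 (r = 0.953). The Csf1r probe at 3495 was nearest to Lpin1 (r = 0.998) and the probe at 2341 to Wdr45l (r = 0.985). The Csf2rb probes at 1319, 1344 and 2806 were nearest to Gnai2 (r = 0.984), Tnfrsf13b (r = 0.986) and Pbx3 (r = 0.969), and Pbx3 was also among the 3 genes nearest to the probe at 1319.

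Promoter windows of 300 bases, 250 before and 50 after the start site, were at hand for 6 of the 9 genes from RefSeq (build GRCm38.p6). Letters were searched on both strands for the NF-kB consensus, AP-1 (TGANTCA), a STAT site (TTCNNNGAA), the ISRE and PU.1 (GAGGAA), which 8.46%, 7.81%, 8.30%, 3.44% and 28.3% of all 32851 windows contain. The Csf1 window held 1 match to the NF-kB consensus. It is shown in capitals in 100 bases that begin 200 bases before the start, chr3:107760570-107760669 on the minus strand, because Csf1 rose in both genotypes.
Csf1 upstream stretch: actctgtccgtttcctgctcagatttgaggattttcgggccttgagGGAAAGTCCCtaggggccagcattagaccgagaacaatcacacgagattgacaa
The Csf3r window held 1 match to the NF-kB consensus and 1 to PU.1, the Csf2ra window 2 to PU.1, and the Csf2rb2 window 1 to the STAT site and 2 to PU.1. The Csf2 and Il3ra windows held none of these letters. A match is only a description of letters in the window.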

How the data were processed

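RNA of 8 samples was hybridized to Illumina bead arrays, named MouseRef-8 in the series design and MouseWG-8 in the label protocol. The authors deposited, for every array, a bead-averaged intensity and a detection p-value of each probe. Per the file headers the intensity values were neither normalized nor background-subtracted, yet undetected probes lay around 0, so nothing was subtracted here. 0 columns were left without a sample. After the methods, which name rank-invariant normalization, arrays were brought to their mean by a robust line through the origin over probes of stable rank (factors 0.801 to 1.30). A floor of 1 preceded the log2 scale. Probes detected (p under 0.05) on 2 or more arrays entered a one-way limma 3.58.1 model (R 4.3.3, MASS 7.3.60.0.1) of all 8 arrays. Adjusted p-values are from limma with Benjamini-Hochberg adjustment over 13868 probes, 2-sided, called under 0.05. For a probe undetected on both arrays of a group, "at least N-fold" sets the mean of the detected group against the mean, per array, of the higher of its own value and the lowest detected probe. The number of arrays limits the precision. Genes were named by rule: all members, Nos2, in each list the called genes with the 2 largest changes each way, of which some are given, and the 3 genes most like a member whose groups span at least 1 log2 unit. The members and lists were chosen with earlier results of these data known. All 9 member identifiers matched a symbol of the RefSeq gene table. The procedure was tested on simulated data. Alternatives were neqc, quantile normalization, an intercept in the scaling line, a floor of 16, no or a stricter detection filter (p under 0.01 on 4 arrays), a fit on 4 arrays, a replicate block, an intensity trend and each array left out. Sequences of Csf1r probes are not given, and some genes of the lists, which stay in the counts, are not reported by name here.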

Additional observations from a re-analysis of the deposited data

Results flagged for a closer look

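The response to LPS plus IFN-γ differed between the genotypes at 9 of the 14 tested probes by the interaction term of the limma model, given here as the log2 response in iNOS-/- cells minus that in WT cells with the limma adjusted p. The response of Csf1 was larger in iNOS-/- cells by 1.32 (SE 0.22, adjusted p = 0.00694). The response of Csf2 was larger by 1.67 (SE 0.28, adjusted p = 0.00756) and that of the Csf3 probe at 289 by 2.69 (SE 0.53, adjusted p = 0.0126). As neither probe was detected in unstimulated cells, those values depend on the floor and rest on the M1 arrays. The Csf2 call was lost with an intensity trend (adjusted p = 0.151).

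The response of Csf1r was lower in iNOS-/- cells by -1.78 at the probe at 2341 (SE 0.21, adjusted p = 0.00232) and by -0.85 at the probe at 3495 (SE 0.18, adjusted p = 0.0144), the latter call being lost without iNOS-/- unstimulated replicate 1. For Csf2rb the differences were -1.33 at the probe at 1319 (SE 0.17, adjusted p = 0.00306), -1.44 at the probe at 1344 (SE 0.28, adjusted p = 0.0117) and -1.64 at the probe at 2806 (SE 0.13, adjusted p = 0.000902). All 3 kept their call in each of 16 alternatives. The Csf3r probe at 2937 gave 0.89 (SE 0.27, adjusted p = 0.0479), called in 7 of 16 alternatives, and the other Csf3r probe gave 0.94 without passing the test (adjusted p = 0.144).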

How the results depend on the processing

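Over 68 member results, 33 of them called, 17 alternatives gave 1133 values, of which 1012 kept direction and side of the threshold, 61 newly passed it, 39 no longer passed it and 21 changed sign. Csf2ra turned with neqc and quantile normalization in the response of iNOS-/- cells (-0.17 and -0.17), between the M1 groups (-0.39 and -0.40, both called, and -0.0021 with an intercept) and in the difference of responses (-0.27 and -0.27). Il3ra between the M1 groups turned to 0.012 and 0.014, the Csf1r probe at 2341 between unstimulated cells to 0.031 and 0.033, and the Csf3 probe at 293 between the M1 groups to 0.41 with an intercept. With each array left out, values that changed sign ran from -0.057 to 0.13 for Csf2ra in WT cells, -0.011 to 0.17 for Csf2ra between the M1 groups, -0.11 to 0.084 for Il3ra between the M1 groups, -0.23 to 0.12 for the Csf1r probe at 2341 between unstimulated cells, -0.035 to 0.14 for the Csf2rb probe at 1344 in iNOS-/- cells and -0.57 to 0.0023 for the Csf3 probe at 293 between the M1 groups. With the main processing described above, none of these was called but Csf2ra in iNOS-/- cells. The cause of the changes of sign was not tested. Again with each array left out, probes called over the whole array ran from 3093 to 4861 for activation in WT cells (lowest without WT unstimulated replicate 2) and from 2697 to 4419 between unstimulated cells (lowest without iNOS-/- unstimulated replicate 1), against 4867 and 4447 with all arrays and 6177 and 5675 with neqc. Of these calls 57.6% were higher with activation in WT cells, against 44.4% with neqc and 47.4% with quantile normalization, and 52.4% in iNOS-/- cells, against 41.9% with quantile normalization. An intercept moved the median of all probes from 0 to 0.20 between the M1 groups. The replicate numbers did not pair the arrays (correlations of their deviations -0.037 to 0.025 over 6 pairs of groups), and a replicate block gave 4288, 6601, 6271, 3887 and 5314 called probes for activation in WT and iNOS-/- cells, the M1 groups, the unstimulated groups and the difference of responses. The slide could not be used as a block, since the column names give none. Leaving out an array leaves its group with 1 array, assumed to vary like the others. Signal near the lowest detected probe limits Csf2 in WT cells and Csf3.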
